A study of Mus musculus with 28 samples.

Results

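Brain vessels hold their barrier state through Wnt and β-catenin signalling, and 10 genes of this pathway were followed here in endothelial and mural cells of mouse brains that carried brain metastases (BrM) or none. The 10 genes were chosen as a list of receptor parts and target genes, Reck, Adgra2, Fzd4, Lef1, Tcf7, Axin2, Nkd1, Notum, Apcdd1 and Tnfrsf19, and all 10 were found by symbol among the 53647 gene IDs of the count table. The study measured RNA in 28 libraries of 6 groups. Endothelial cells were sorted as CD31+ cells and mural cells, the pericytes and smooth muscle cells around the vessel, as tdTomato+ cells, both after removal of CD45+, CD11B+ and EPCAM+ cells. All mice carried PDGFRβ-CreERT2 and Rosa-tdTomato and had received tamoxifen at 2 mg daily for 5 days, so the mural gate follows cells in which the Pdgfrb-driven Cre was active, and the non-tumor brains share this genotype and treatment. Breast BrM were grown from PyMT-BrM3 cells and lung BrM from Sv2T3-BrM1 cells, each 1 cell line, after injection into the heart. The CD31 sort gave 5 non-tumor, 5 breast BrM and 5 lung BrM libraries, and the PDGFRb sort gave 5, 4 and 4. The ages of the mice are not given in the sources used here, 2 lung samples carry a pair of mouse numbers each and may be pools, and the 2 libraries of mouse 54135 carry titles that disagree with their cell type labels. They were grouped by title: in the library titled CD31 Pecam1 stood at 1362 CPM, and in the library titled PDGFRb Pdgfrb stood at 855.7 CPM.

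In canonical Wnt signalling, a Wnt ligand bound by a Frizzled receptor and an Lrp5 or Lrp6 co-receptor stops the destruction of β-catenin, which then enters the nucleus and activates genes together with the DNA-binding proteins of the TCF and LEF family. In brain endothelium the ligands Wnt7a and Wnt7b are recognised through Reck, a membrane-anchored glycoprotein, and Adgra2 (also called Gpr124), an adhesion receptor, while Norrin signals through Fzd4 with the help of Tspan12. Several targets of the pathway, among them Axin2, Nkd1, Notum and Apcdd1, encode its own inhibitors and so serve as readouts of its activity.

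Library totals ran from 7105171 to 23934038 counts, so that 3 counts equal 0.125 to 0.422 CPM on these totals before TMM scaling. The levels given in CPM are counts relative to library totals scaled by TMM over all 28 libraries. On that scale the CPM of 3 counts differs from these limits and is not given. The sorted cell types were checked against marker genes. The summed level of 12 endothelial markers was 15850 to 16930 CPM in CD31 non-tumor, 6932 to 13890 CPM in CD31 breast and 9310 to 13880 CPM in CD31 lung libraries. The summed level of 10 pericyte markers was 13950 to 24740 CPM in PDGFRb non-tumor and 5366 to 14940 CPM in PDGFRb breast libraries, but 198 to 7586 CPM in PDGFRb lung libraries. In 3 of the 4 PDGFRb lung libraries Pdgfrb stood at 36.0 to 42.2 CPM, against 856 to 1470 CPM in the PDGFRb non-tumor libraries, while 14 epithelial markers summed to 8665 to 10710 CPM, against 25.5 to 124 CPM. These 3 libraries go against their sort label. In the PDGFRb sort, the differences called for BrM with both origins averaged and for lung BrM are given with and without them. In the PDGFRb breast sort, the library of mouse 51950 had the lowest total and, at 9174, the fewest detected genes of all 28. Fewer cells of a type and less RNA per cell cannot be told apart in these bulk samples.

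CD31-sorted cells from brains with metastases held less RNA of most of the 10 genes than CD31-sorted cells from non-tumor brains. With breast and lung BrM averaged, 8 of the 10 genes were lower and none was higher at an adjusted p under 0.05 (edgeR's quasi-likelihood test, Benjamini-Hochberg over 14876 genes). Of all genes tested in this comparison, 16.7% were lower and 21.6% were higher. The median log2 difference of the 10 genes was -1.60, against 0.009 over all genes. The largest falls were those of Notum, Tnfrsf19 and Reck, and Adgra2 and Apcdd1 did not pass the test. The same 8 genes were counted when libraries were scaled to 5 pan-endothelial genes (Pecam1, Cdh5, Tie1, Erg and Egfl7) in place of TMM, with 1853 of 14876 genes lower. These genes are not a fixed measure of endothelial content. Pecam1 averaged 1404 CPM in non-tumor, 842.5 in breast and 942.8 in lung BrM, and Cdh5 280.4, 593.2 and 522.2 CPM. With the date in the column names as a covariate 6 were called (1537 of 14876 genes lower), where Fzd4 and Nkd1 had adjusted p-values of 0.103 and 0.0812. When mouse 54135 was grouped by its cell type label, 5 were called, with 1666 of 15017 genes lower.

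**Figure D1:**
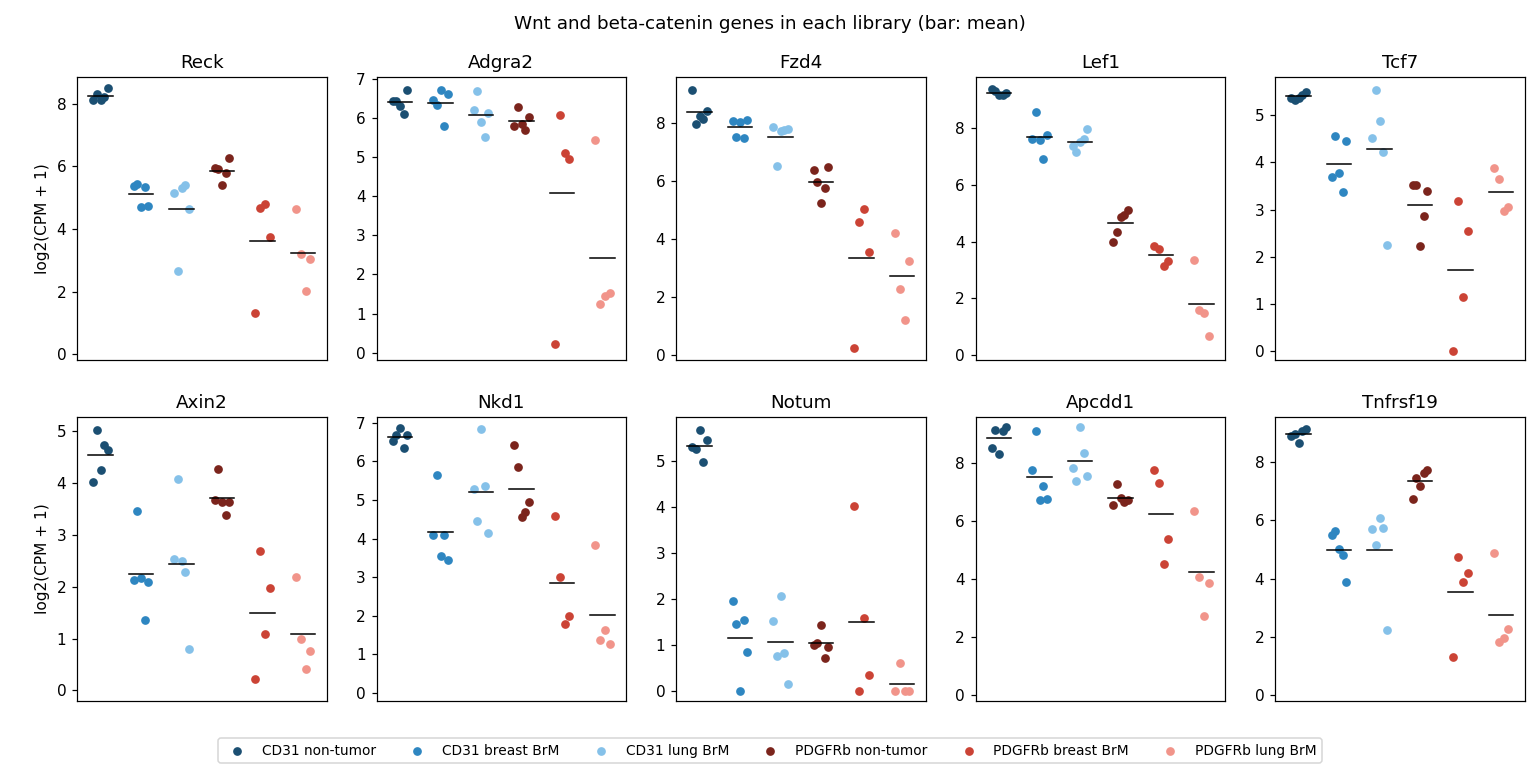
Level of each of the 10 genes, as log2(CPM + 1), in the 28 libraries, 1 point per library and a bar at the group mean; blue groups are the CD31 sort and red groups the PDGFRb sort. In the CD31 sort the non-tumor libraries lie above every BrM library for Reck, Lef1, Notum and Tnfrsf19, while those of Adgra2 overlap with BrM.

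Of the receptor genes, Reck separated the groups without overlap. Its level was 276, 279, 293, 319 and 359 CPM in the CD31 non-tumor libraries, 25.2, 25.4, 39.5, 40.6 and 42.6 CPM in breast BrM and 5.34, 23.9, 34.5, 38.6 and 41.7 CPM in lung BrM. Every non-tumor library was over 6 times as high as the highest BrM library, and the lowest value came from the lung library of mouse 51697. The log2 difference of Reck was -3.23 ± 0.29 (SE) in BrM against non-tumor (adjusted p = 4.08e-07), -3.10 ± 0.38 in breast BrM (adjusted p = 1.23e-05) and -3.35 ± 0.38 in lung BrM (adjusted p = 5.83e-06). Adgra2, which works with Reck at the receptor, stood at 67.5, 77.8, 84.97, 85.08 and 104 CPM in non-tumor, 53.9, 79.2, 86.7, 97.4 and 104 CPM in breast BrM and 44.5, 58.0, 68.7, 72.1 and 102 CPM in lung BrM. The 3 groups overlapped along most of their range. Its log2 difference was -0.09 ± 0.19 (adjusted p = 0.754), with an approximate 95% interval of -0.45 to 0.28 that leaves out a change as large as that of Reck. Fzd4, the Norrin receptor, stood at 248.5 to 561.5 CPM in non-tumor, 179 to 274 CPM in breast BrM and 89.8 to 229 CPM in lung BrM. Fzd4 fell by 0.67 ± 0.21 in BrM (adjusted p = 0.0218), the smallest of the 8 falls. The call rested on the non-tumor library of mouse 53680 with 561.5 CPM, without which the log2 difference was -0.42 (adjusted p = 0.131).

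Lef1, a DNA-binding partner of β-catenin, stood at 576, 578.5, 611, 636 and 665 CPM in CD31 non-tumor libraries. In breast BrM it stood at 121, 191, 198, 215 and 381 CPM, and in lung BrM at 141, 165, 182, 197 and 253 CPM. No BrM library reached the non-tumor range, and the highest BrM value, 381 CPM, came from breast mouse 52599. In log2 terms Lef1 fell in BrM, at -1.55 ± 0.19 (adjusted p = 9.77e-06), with -1.45 ± 0.23 in breast BrM (adjusted p = 0.000183) and -1.65 ± 0.23 in lung BrM (adjusted p = 5.35e-05). Tcf7, a second factor of the same family, was at a lower level and varied little among non-tumor libraries, from 39.2 to 44.2 CPM. Its breast BrM values were 9.39, 11.9, 12.7, 20.8 and 22.4 CPM, and its lung BrM values were 3.72, 17.5, 22.02, 28.6 and 45.3 CPM. The breast libraries all lay under the non-tumor range, while 1 lung library, from mouse 51697, lay above it. The log2 difference of Tcf7 was -1.07 ± 0.36 in BrM (adjusted p = 0.0253) and -1.39 ± 0.43 in breast BrM (adjusted p = 0.0222), and in lung BrM it was -0.76 ± 0.43 (adjusted p = 0.183). The call in BrM was lost without non-tumor mouse 54135 (adjusted p = 0.0502), 56727 (0.0532) or 56740 (0.056), at log2 differences of -1.07, -1.05 and -1.04. The call in breast BrM was lost without breast mouse 51950 (0.0543), 52865 (0.0547) or 53072 (0.0531), and lung BrM passed without mouse 51697, at -1.17 (0.0395).

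The feedback genes fell by different amounts. Axin2, a scaffold of the complex that destroys β-catenin and a widely used readout of the pathway, stood at 15.2, 18.1, 23.9, 25.5 and 31.7 CPM in CD31 non-tumor, 1.58, 3.25, 3.39, 3.49 and 10.04 CPM in breast BrM and 0.745, 3.85, 4.65, 4.82 and 16.01 CPM in lung BrM. The breast libraries did not reach the non-tumor range, and 1 lung library, from mouse 51697, did. Axin2 was lower at -2.12 ± 0.51 in BrM (adjusted p = 0.00357), -2.37 ± 0.64 in breast BrM (adjusted p = 0.00959) and -1.86 ± 0.63 in lung BrM (adjusted p = 0.0302). The call in lung BrM was lost at log2 differences of -1.83 to -1.70 (adjusted p = 0.0558 to 0.0715) without lung mouse 51435, 54957 or the pair 55169-70, or without non-tumor mouse 54132, 56727 or 56740. Nkd1, which binds Dishevelled and dampens the signal, stood at 80.3, 91.1, 102, 102 and 116 CPM in non-tumor, 9.91, 10.7, 16.1, 16.2 and 49.5 CPM in breast BrM and 16.7, 20.8, 37.9, 40.04 and 114 CPM in lung BrM. The lung library of mouse 54957 lay within the non-tumor range, and no other BrM library did. Nkd1 was lower at -1.65 ± 0.40 in BrM (adjusted p = 0.00375) and -2.24 ± 0.50 in breast BrM (adjusted p = 0.00267). Its difference in lung BrM was -1.06 ± 0.48 (adjusted p = 0.098), and -1.69 without mouse 54957 (adjusted p = 0.00634).

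Notum, a secreted enzyme that inactivates Wnt by removing its lipid, was close to undetected in BrM. Its level was 30.1, 37.2, 38.5, 42.4 and 49.5 CPM in CD31 non-tumor, 0, 0.814, 1.77, 1.93 and 2.87 CPM in breast BrM and 0.124, 0.706, 0.792, 1.89 and 3.22 CPM in lung BrM. The breast and lung libraries held 132 and 101 counts of Notum in all, against 3532 counts in the non-tumor libraries. Its log2 difference in BrM was -4.77 ± 0.63 (adjusted p = 2.16e-05), the largest of the 8 falls. The difference was -4.70 ± 0.84 in breast BrM (adjusted p = 0.000447) and -4.83 ± 0.84 in lung BrM (adjusted p = 0.000353). Apcdd1, a membrane-bound inhibitor that binds Wnt and Lrp proteins, separated the groups less. It stood at 317, 364, 541, 561 and 606 CPM in non-tumor, 105, 107, 145, 215 and 547 CPM in breast BrM and 163, 187, 223, 319 and 597 CPM in lung BrM. In each tumor group 1 library lay within the upper non-tumor range, mouse 52599 in breast and mouse 54957 in lung BrM. The log2 difference of Apcdd1 in BrM was -0.85 ± 0.36 (adjusted p = 0.0746), -1.16 without mouse 52599 (adjusted p = 0.00378) and -1.04 without mouse 54957 (adjusted p = 0.0235). Without mouse 52599 the breast BrM difference also passed, at -1.71 (adjusted p = 0.00197).

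Tnfrsf19, also called Troy, is a receptor of the tumor necrosis factor family and a target of β-catenin. Its level was 404, 479.9, 507, 541 and 571 CPM in CD31 non-tumor libraries, 13.7, 27.1, 31.7, 44.2 and 48.7 CPM in breast BrM and 3.72, 34.7, 51.4, 53.1 and 66.9 CPM in lung BrM. Each non-tumor library was over 6 times as high as any BrM library, and the lowest value came from the lung library numbered 56195-56520. The log2 difference of Tnfrsf19 was -3.71 ± 0.40 in BrM (adjusted p = 2.34e-06), -3.89 ± 0.52 in breast BrM (adjusted p = 3.39e-05) and -3.53 ± 0.51 in lung BrM (adjusted p = 6.72e-05).

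Since most of the 10 genes moved together in CD31 cells, the 250 bases before their start sites were searched for the TCF and LEF core motifs CTTTGAT and CTTTGAA on both strands. RefSeq promoters of GRCm38.p6 were matched for 7 of the 10 genes, with 12 start sites, and those of Notum, Apcdd1 and Adgra2 were not in the table. CTTTGAT was found in 1 of the 12 windows, at a start site of Tnfrsf19, against 3.21% of 32851 promoter windows of the same length in the table. CTTTGAA was found in none of the 12, against 4.46% of all windows. The window of Tnfrsf19 that holds the motif (minus strand of chr14:61037988-61038237) is shown with the motif, read on the opposite strand, in capitals, and beside it the window of Reck (plus strand of chr4:43875280-43875529), which holds neither motif although Reck fell by a similar amount:
Tnfrsf19: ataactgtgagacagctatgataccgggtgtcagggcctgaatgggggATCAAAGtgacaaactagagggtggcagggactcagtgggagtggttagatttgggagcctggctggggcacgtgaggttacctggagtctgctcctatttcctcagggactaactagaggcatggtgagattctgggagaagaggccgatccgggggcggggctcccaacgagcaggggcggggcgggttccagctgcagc
Reck: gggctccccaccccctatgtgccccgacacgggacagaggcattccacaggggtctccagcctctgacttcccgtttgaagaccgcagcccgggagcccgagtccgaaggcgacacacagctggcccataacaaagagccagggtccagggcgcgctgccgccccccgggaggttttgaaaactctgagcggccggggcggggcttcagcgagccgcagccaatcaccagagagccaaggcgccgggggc
The capitals span bases 202 to 196 before the start site, and a match of letters is not evidence of a bound site.

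Split by tumor origin, 7 of the 10 genes were lower in breast BrM (11.4% of all genes were lower) and 6 in lung BrM (14.5% of all genes were lower). Both comparisons use the same 5 non-tumor libraries. Reck, Lef1, Axin2, Notum and Tnfrsf19 were called in both, Tcf7 and Nkd1 in breast BrM alone and Fzd4 in lung BrM alone. Fzd4 differed by -0.79 ± 0.25 in lung BrM (adjusted p = 0.0249), and by -0.52 (adjusted p = 0.104) without non-tumor mouse 53680. Such a split does not show that the origins differ, and in the direct test of lung against breast BrM edgeR called none of the 10, with 1 gene under an unadjusted p of 0.05 (2.13% of all genes were called), and DESeq2 and limma-voom called 0 each. The gene with the smallest p was Nkd1, which stood 1.18 ± 0.48 (log2) higher in lung than in breast BrM (adjusted p = 0.265, approximate 95% interval 0.23 to 2.13). Without breast mouse 52599, Nkd1 was called in this comparison at 1.81 (adjusted p = 0.036). For the other 9 genes the differences lay between -0.25 and 0.63.

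**Figure D2:**
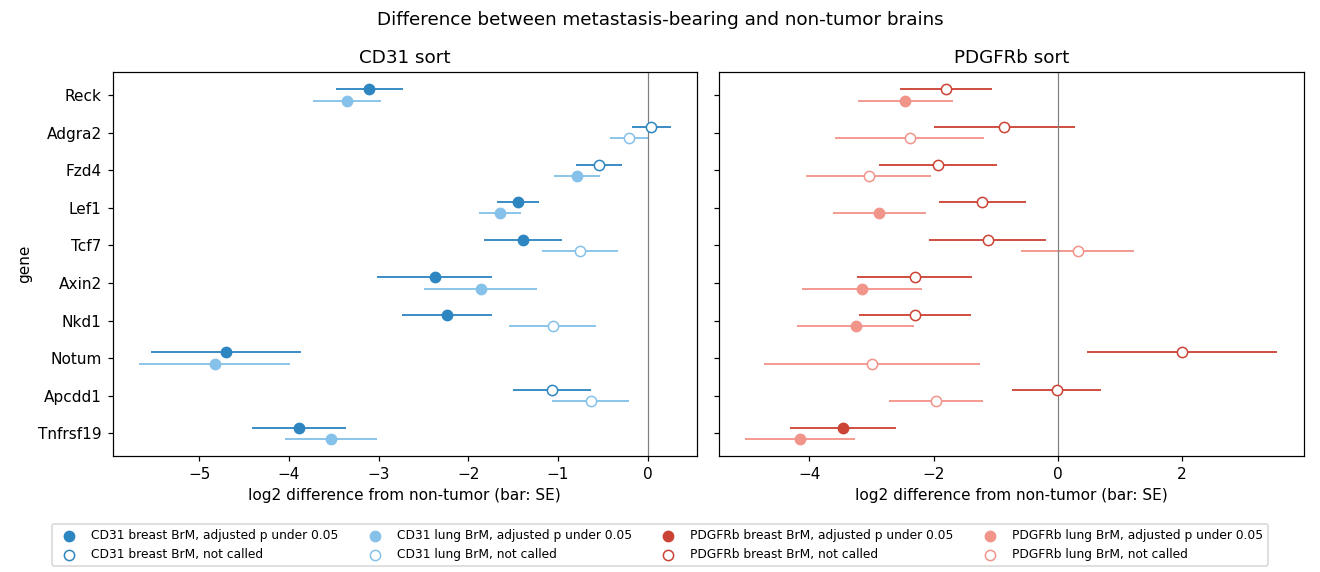
Log2 difference of breast BrM (darker) and lung BrM (lighter) from non-tumor libraries for each of the 10 genes, in the CD31 sort (left) and the PDGFRb sort (right), with bars of 1 SE; filled points passed an adjusted p of 0.05 and open points did not. In the CD31 sort Reck, Notum and Tnfrsf19 lie beyond -3 for both origins and Adgra2 lies near 0; in the PDGFRb sort the bars are wider.

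Within the 3 dates of the column names that held CD31 libraries of both conditions, 9 of the 10 genes were lower in BrM on each date, and Adgra2 on 2 of 3. On these dates the differences in mean log2(CPM + 1) were -2.77, -3.16 and -3.37 for Reck, -3.75, -3.82 and -4.96 for Tnfrsf19 and -2.10, -1.20 and -1.46 for Lef1. Each date held 1 or 2 non-tumor libraries, so no test was made within a date. The same count was not made over all genes, of which 16.7% were called lower in BrM over all dates. RNA of other cells moved with the tumor groups. The 14 epithelial markers summed to 3.01 to 16.3 CPM in CD31 non-tumor libraries, 185.5 to 3462 CPM in breast and 132 to 2362 CPM in lung libraries, with Grhl2 at 0 in all lung libraries, and 12 of the 13 tested were called higher in BrM. The endothelial sum fell to between 6932 and 13890 CPM in BrM, and 4 of its 12 genes were called lower and 1 higher. The part of tumor RNA in the differences of the 10 genes was not tested.

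On the authors' FPKM values, which are scaled by gene length and allow levels of genes to be compared, Lef1 was the highest of the 10 in CD31 non-tumor libraries, at 191.6 ± 10.2 FPKM (SD, n = 5). Next came Tnfrsf19 at 140.3 ± 21.4, Reck at 68.6 ± 8.63, Apcdd1 at 53.5 ± 12.9, Fzd4 at 49.9 ± 16.9 and Nkd1 at 36.4 ± 5.21 FPKM. The lowest levels were those of Notum at 27.4 ± 5.13, Tcf7 at 17.7 ± 0.98, Adgra2 at 15.9 ± 2.52 and Axin2 at 10.2 ± 2.8 FPKM. The neighbours Reck and Apcdd1, Apcdd1 and Fzd4, Fzd4 and Nkd1, Nkd1 and Notum, and Tcf7 and Adgra2 differed by less than the sum of their SDs. In breast BrM the order changed with the unequal falls. Lef1 remained the highest at 72.7 ± 25.3 FPKM, Fzd4 followed at 35.6 ± 7.36 and Apcdd1 at 23.0 ± 16.1, and Adgra2 at 16.7 ± 3.82 FPKM stood above Tnfrsf19 at 11.6 ± 4.73 and Reck at 8.24 ± 2.14. In breast BrM the neighbours Fzd4 and Apcdd1, Apcdd1 and Adgra2, Adgra2 and Tnfrsf19, and Tnfrsf19 and Reck differed by less than the sum of their SDs. Notum had the lowest mean in both tumor groups, at 1.11 ± 0.84 FPKM in breast and 1.06 ± 1.06 FPKM in lung BrM. Axin2 came next at 2.10 ± 1.58 and 2.80 ± 2.55 FPKM, also within the sum of the SDs.

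In non-tumor brains the endothelial sort held more of most of these genes than the mural sort. Against CD31, 6 of the 10 genes were lower in the PDGFRb sort and none was higher (10.5% of 18548 genes were lower and 17.4% higher; edgeR on all 28 libraries). The median log2 difference of the 10 genes was -2.23, against 0.10 over all genes. Lef1 showed a difference of -4.61 ± 0.47 on the log2 scale (adjusted p = 2.32e-08), with 14.7, 19.3, 28.2, 29.9 and 33.7 CPM in PDGFRb libraries against 576 to 665 CPM in CD31 libraries. Notum stood at 0.663 to 1.71 CPM in the PDGFRb sort, a difference of -5.18 ± 1.28 (adjusted p = 0.0028). Fzd4 differed by -2.43 ± 0.61 (adjusted p = 0.0031), Reck by -2.39 ± 0.54 (adjusted p = 0.00116), Tcf7 by -2.36 ± 0.67 (adjusted p = 0.00805) and Apcdd1 by -2.10 ± 0.61 (adjusted p = 0.00994). In these PDGFRb libraries the 12 endothelial markers summed to 830 to 1340 CPM. There the 8 astrocyte markers summed to 258.5 to 3592 CPM and the 9 neuron markers to 2.47 to 922 CPM. The part of RNA of these other cells in the levels there was not tested.

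The remaining 4 genes were not called between the sorts. Axin2 stood at 9.50, 11.4, 11.5, 11.7 and 18.3 CPM in PDGFRb non-tumor libraries, overlapping with the 15.2 to 31.7 CPM of CD31, and differed by -0.87 ± 0.72 (adjusted p = 0.438). Adgra2 stood at 50.9 to 76.6 CPM and differed by -0.47 ± 0.74 (adjusted p = 0.738). Nkd1 stood at 22.8 to 85.4 CPM and differed by -1.16 ± 0.66 (adjusted p = 0.22). Tnfrsf19, at 105, 144, 173, 196 and 212 CPM, lay under the CD31 libraries without overlap, at a difference of -1.59 ± 0.63 (adjusted p = 0.0599). When mouse 54135 was grouped by its cell type label, 0 of all 18548 genes were called, the 10 genes included. On FPKM, Tnfrsf19 was the highest of the 10 genes in the PDGFRb sort of non-tumor brains at 56.9 ± 13.7 FPKM, followed by Nkd1 at 19.7 ± 13.3 and Reck at 15.6 ± 3.03 FPKM.

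In PDGFRb-sorted cells the 10 genes were mostly lower in BrM too, with more spread between libraries. Markers of several cell types fell in the same comparison: 4 of 10 pericyte (median -1.80), 4 of 6 smooth muscle (-2.66), 5 of 8 astrocyte (-2.50) and 5 of 6 tested neuron markers (-5.94) were called lower, and 10 of 14 epithelial markers were called higher (5.19). Their part in the differences of the 10 genes was not tested. With both origins averaged, 6 of the 10 genes were lower and none was higher (8.59% of 17028 genes were lower). They were Tnfrsf19 at -3.80 ± 0.66 (adjusted p = 0.0018), Nkd1 at -2.78 ± 0.71 (0.0162), Axin2 at -2.73 ± 0.73 (0.0201), Fzd4 at -2.48 ± 0.76 (0.0365), Reck at -2.12 ± 0.59 (0.0239) and Lef1 at -2.04 ± 0.57 (0.0237). Without the 3 lung libraries low in Pdgfrb, 92 of 21318 genes were called lower and none of the 6 was among them. Their log2 differences were then -3.05 for Tnfrsf19 (adjusted p = 0.0663), -2.07 for Nkd1, -2.10 for Axin2, -1.96 for Fzd4, -1.59 for Reck and -1.38 for Lef1 (adjusted p = 0.324 to 0.383). With the date as a covariate 1 was called (551 of 17028 genes lower), as without the 2 lung samples that carry a pair of mouse numbers (572 of 19086). Without non-tumor mouse 53680, 56727 or 56740, 3 were called (1012 of 16768, 915 of 16638 and 859 of 16608 genes lower). Fzd4 lost its call without any 1 of the 5 non-tumor mice, of the 3 lung libraries low in Pdgfrb or breast mouse 53072, at -2.68 to -2.35. Lef1 lost it without non-tumor mouse 54135, 56727 or 56740 or lung mouse 54957, Reck without non-tumor mouse 53680, 56727 or 56740, and Nkd1 without non-tumor mouse 53680. The lone lung library with Pdgfrb above 50 CPM, from mouse 51435, held 465.7 CPM of Pdgfrb and 6498 CPM of the epithelial markers.

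In breast BrM alone, 1 gene was lower in the PDGFRb sort (2.69% of all genes were lower). This was Tnfrsf19, which stood at 1.49, 13.9, 17.2 and 25.9 CPM against 105 to 212 CPM in non-tumor libraries, a log2 difference of -3.46 ± 0.85 (adjusted p = 0.0228). All 4 breast libraries lay under the non-tumor range, and their pericyte markers summed to at least 5366 CPM. Their epithelial markers summed to 1365 to 4798 CPM, whose part in the result was not tested. The call was lost without breast mouse 52865 (-3.43, adjusted p = 0.0577) or 53072 (-3.60, 0.0572) and without non-tumor mouse 56727 (-3.39, 0.0507) or 56740 (-3.36, 0.0531). The shallow library of mouse 51950 held the lowest level of Axin2, Fzd4, Adgra2, Reck, Tcf7 and Tnfrsf19 in this group and the highest of Notum, 15.3 CPM, against 0, 0.285 and 2.02 CPM in the other 3. Without it 2 genes were called (1239 of 18081 genes lower), Tnfrsf19 and Nkd1, the latter at -3.39 (adjusted p = 0.0192).

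In lung BrM, 5 genes were lower in the PDGFRb sort (7.58% of all genes were lower), Tnfrsf19 at -4.15 ± 0.88 (adjusted p = 0.00622), Nkd1 at -3.25 ± 0.94 (0.0288), Axin2 at -3.15 ± 0.96 (0.037), Lef1 at -2.87 ± 0.75 (0.0176) and Reck at -2.45 ± 0.76 (0.0402). In mouse 51435 these 5 genes stood at 28.2, 13.3, 3.54, 9.23 and 23.8 CPM. In the 3 libraries low in Pdgfrb they stood at 2.56 to 3.81, 1.41 to 2.10, 0.331 to 0.979, 0.586 to 2.03 and 3.09 to 8.13 CPM. The pericyte markers summed to 7586 CPM and the epithelial markers to 6498 CPM in mouse 51435, and the part of either in these levels was not tested. Without those 3 libraries the lung group is 1 library, its spread is taken from the other groups, and 4 of 21318 genes were called lower. None of the 5 was called in that fit, where their log2 differences were -2.59 for Tnfrsf19, -1.76 for Nkd1, -1.85 for Axin2, -1.48 for Lef1 and -1.33 for Reck. The count was 8 without mouse 51435 (1662 of 17883 genes lower), and 1 without mouse 54957 (663 of 17898) or the pair 55169-70 (652 of 17862). It was 2 without the pair 56195-56520 (667 of 17865) or non-tumor mouse 53680 (892 of 16768) or 54132 (1094 of 16803). It was 3 without non-tumor mouse 54135 (982 of 16663), 56727 (846 of 16638) or 56740 (819 of 16608). Tcf7 differed from the rest: it stood at 6.79, 7.26, 11.5 and 13.6 CPM in the lung libraries, within or above the 3.69 to 10.4 CPM of non-tumor libraries, a difference of 0.32 ± 0.91 (adjusted p = 0.864). The part of epithelial RNA in the level of Tcf7 was not tested.

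**Figure D3:**
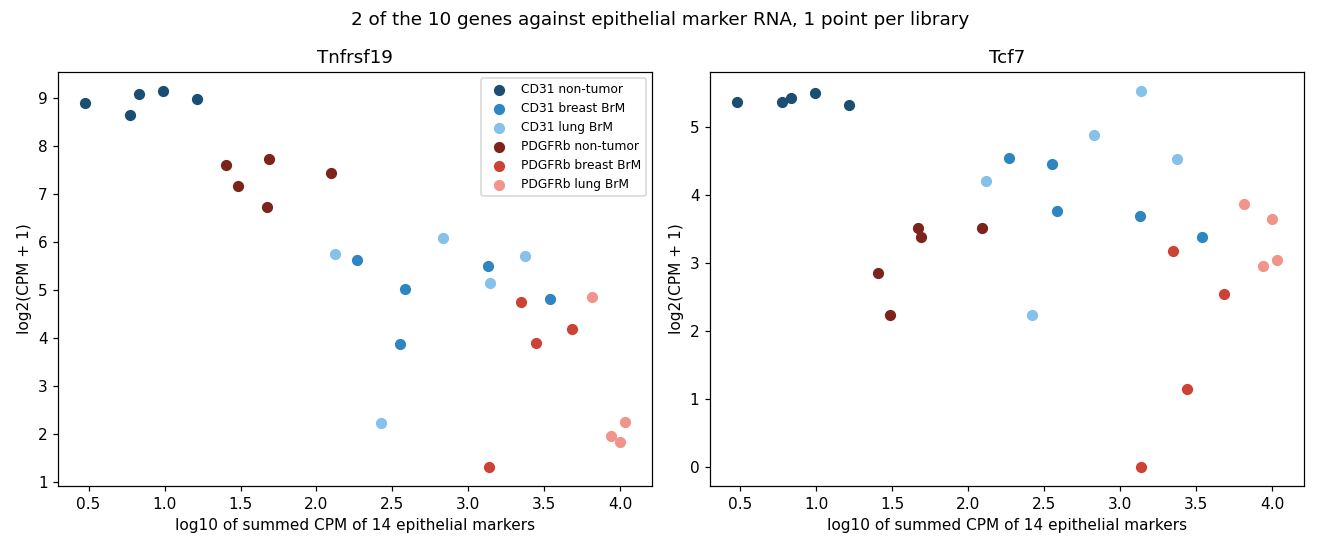
Levels of Tnfrsf19 (left) and Tcf7 (right), as log2(CPM + 1), against the log10 of the summed CPM of 14 epithelial markers, 1 point per library. The 3 PDGFRb lung libraries at the far right hold 2.56 to 3.81 CPM of Tnfrsf19 and 6.79 to 11.5 CPM of Tcf7.

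None of the 10 genes was called by edgeR between lung and breast BrM in the PDGFRb sort, with 3 under an unadjusted p of 0.05 (5.47% of all genes were called). DESeq2 called 1, which was Notum at -5.23 (adjusted p = 0.0191), with 1096 of 17028 genes higher and 1218 lower. Limma-voom called 0. Notum had the smallest p, at -5.00 ± 1.92 (adjusted p = 0.147), which moved to -2.56 without breast mouse 51950 and to -9.32 without lung mouse 54957, where all lung libraries left were at 0. Without lung mouse 51435, 3 of the 10 were called, with 584 of 17883 genes higher and 1010 lower. A direct test of whether the BrM difference itself differed between the sorts called none of the 10 (9.97% of all genes were called), with 2 under an unadjusted p of 0.05, while DESeq2 called 1 and limma-voom 2. Both counts remained 0 in edgeR without the 3 lung libraries low in Pdgfrb. Notum again had the smallest p: its BrM difference was 4.24 ± 1.48 higher in PDGFRb than in CD31 cells (adjusted p = 0.0685). Leaving out each library in turn gave 2.09 to 4.54. It was called at 4.46 without lung PDGFRb mouse 51435 (adjusted p = 0.0474) and at 4.32 without breast PDGFRb mouse 52599 (adjusted p = 0.037), and the lowest value, 2.09, came without lung PDGFRb mouse 54957, the only lung PDGFRb library with any Notum count. For Tnfrsf19 the difference between the sorts was -0.07 ± 0.76 and for Lef1 it was -0.47 ± 0.51, with approximate 95% intervals of -1.56 to 1.43 and -1.47 to 0.53.

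Other genes of the pathway were followed in 5 lists, whose median log2 differences in CD31 cells lay between -0.29 and 1.09. The counts called in each list stand beside 21.6% of all genes higher and 16.7% lower in CD31 BrM. Of 24 ligands and secretion genes, 7 were tested in CD31 cells, and 2 were higher and 1 lower in BrM (median 0.38). Wls, which carries Wnt proteins to the cell surface, rose by 0.38 ± 0.13 (adjusted p = 0.0269), a call lost without non-tumor mouse 53680, 54132, 54135 or 56727 (adjusted p = 0.0506 to 0.0776), and Porcn, which adds their lipid, fell by 1.34 ± 0.38 (adjusted p = 0.0116). Wnt7b had 674 counts in the 10 BrM libraries and 1 count in the 5 non-tumor libraries, a ratio of 364 with a 95% counting interval from 65.1 (adjusted p = 0.004). It reached 8.66 CPM in breast and 12.8 CPM in lung BrM. In the PDGFRb sort it stood at 1.39 to 26.8 CPM in non-tumor, 0 to 10.7 CPM in breast and 18.6 to 35.5 CPM in lung libraries, and the part of other cells in its CD31 level was not tested.

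Of 19 other receptors, 14 were tested, and 1 was higher and 3 were lower (median -0.01). Lrp6, the co-receptor, fell by 1.14 ± 0.18 (adjusted p = 0.000114), from 71.7 to 87.2 CPM in non-tumor to 26.6 to 57.1 CPM in breast and 17.97 to 35.6 CPM in lung BrM, without overlap. Lrp5, its relative, showed a difference of -0.36 ± 0.61 (adjusted p = 0.681) and Tspan12, the partner of Fzd4, of -0.22 ± 0.19 (adjusted p = 0.387). Fzd3 fell by 2.46 ± 0.67 (adjusted p = 0.00881). Ptk7, a receptor of the planar polarity branch, was at most 0.255 CPM in non-tumor libraries and reached 33.8 CPM in breast and 16.1 CPM in lung BrM (6.54 ± 1.31, adjusted p = 0.000954). In the PDGFRb sort Ptk7 stood at 40.4 to 53.6 CPM in non-tumor, 45.4 to 230.4 CPM in breast and 20.03 to 53.6 CPM in lung libraries.

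Among 18 transducers, 17 were tested, and 3 were higher and 2 lower (median 0.21). Ctnnb1, which encodes β-catenin, stood at 1648 to 1862 CPM in CD31 non-tumor, 966.5 to 1453 CPM in breast and 964.5 to 1302 CPM in lung BrM. It fell by 0.51 ± 0.11 (adjusted p = 0.00137) without overlap between the groups. Apc, a part of the destruction complex, fell by 0.75 ± 0.14 (adjusted p = 0.000418), while the repressors Tle3 and Tcf7l1 rose by 1.003 ± 0.20 (adjusted p = 0.000982) and 1.03 ± 0.36 (adjusted p = 0.0325). Tcf7l1 lost its call without non-tumor mouse 53680, 54135 or 56727, breast mouse 52865 or lung 55169-70, at 0.88 to 0.99.

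Of 22 secreted, membrane or intracellular inhibitors, 12 were tested, and 6 were higher and none was lower (median 1.09). Notum, Nkd1 and Axin2, which also dampen the signal, were lower in the same comparison. Trabd2b, a membrane protease that cuts Wnt proteins, had 1476 counts in BrM and 2 in non-tumor libraries, a ratio of 398 with a 95% counting interval of 110 to 3293 (adjusted p = 2.6e-06), and stood at 4.61 to 20.7 CPM in breast and 2.94 to 14.7 CPM in lung BrM. Sfrp1, a secreted Wnt-binding protein, had 752 counts in BrM and 0 in non-tumor libraries, at least 135-fold higher against 3 counts over the group (adjusted p = 0.00935). It stood at 2.01 to 28.7 CPM in breast BrM, while 4 of 5 lung libraries were at 0, and its call was lost without lung 55169-70, at 5.07. Frzb, of the same family, rose by 3.94 ± 1.04 (adjusted p = 0.0068). In the PDGFRb sort Trabd2b stood at 6.85 to 25.2 CPM in non-tumor, 0 to 9.99 CPM in breast and 0 to 9.07 CPM in lung libraries. Sfrp1 stood there at 4.49 to 9.90, 0 to 45.7 and 0.0552 to 1.33 CPM, and Frzb at 0.586 to 5.53, 0 to 13.5 and 1.29 to 14.8 CPM. The part of other cells in the CD31 levels of these inhibitors was not tested.

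**Figure D4:**
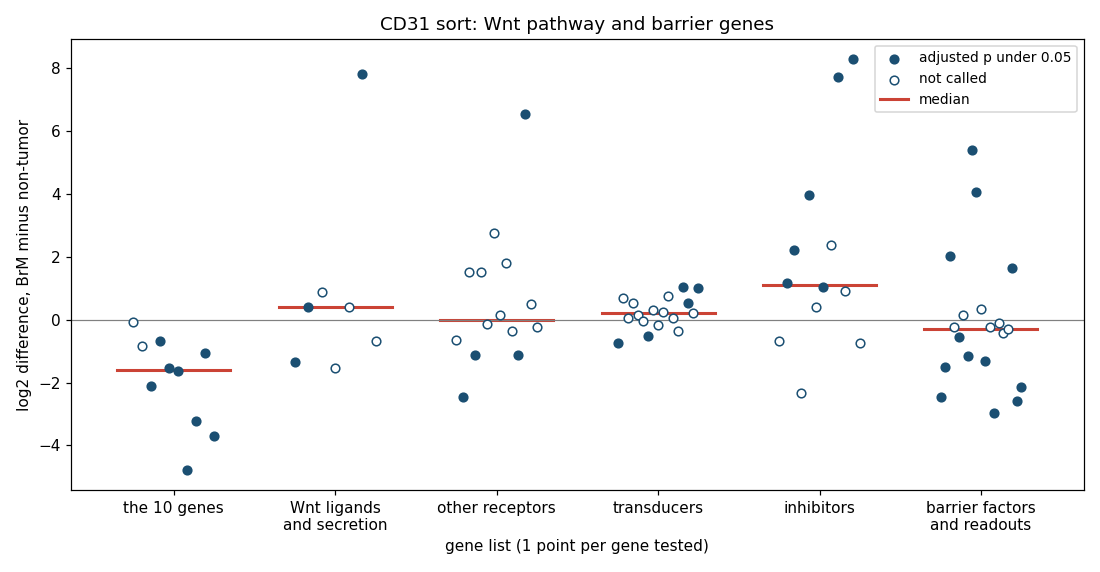
Log2 difference between BrM and non-tumor CD31 libraries for the 10 genes and for each tested gene of 5 further lists, with the list median as a red bar; filled points passed an adjusted p of 0.05. The 10 genes lie between -4.77 and -0.09, while the inhibitors have a median of 1.09.

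Barrier genes downstream or beside the pathway were called in both directions, as were genes in general. Of 19 such genes, all tested, 4 were higher and 8 lower in CD31 BrM (median -0.29). Of all genes, 21.6% were higher and 16.7% lower there. Slco1c1, a thyroid hormone transporter of brain vessels, fell by 2.98 ± 0.32 (adjusted p = 2.23e-06). Slc2a1, the glucose transporter, fell by 1.33 ± 0.32 (adjusted p = 0.00354) and Mfsd2a, a lipid transporter that limits vesicle transport, by 1.16 ± 0.26 (adjusted p = 0.00238). Cldn5, the main tight-junction claudin, stood at 2189 to 3045 CPM in non-tumor, 763 to 3273 CPM in breast and 1889 to 3726 CPM in lung BrM, a difference of -0.24 ± 0.26 (adjusted p = 0.498). Plvap, which marks leaky vessels and is normally low where β-catenin is active, rose by 4.06 ± 0.50 (adjusted p = 9.16e-06), from 9.39 to 18.9 CPM up to 117 to 266 CPM in breast and 53.9 to 598 CPM in lung BrM. The target gene Myc rose by 5.39 ± 0.44 (adjusted p = 1.23e-07), from at most 1.69 CPM in non-tumor to 14.8 to 51.5 CPM in breast and 36.8 to 61.9 CPM in lung BrM. In the PDGFRb sort Myc stood at 6.35 to 15.02 CPM in non-tumor, 52.3 to 75.2 CPM in breast and 80.04 to 138 CPM in lung libraries, and the part of tumor RNA in its level was not tested.

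The mural sort of non-tumor brains held more RNA of several ligands and inhibitors than the endothelial sort. Of all genes, 17.4% were higher and 10.5% lower in this comparison. Of 17 ligands and secretion genes tested, 9 were higher in PDGFRb than in CD31 cells and 1 was lower (median 2.40, also with genes at 0 counts set to their bound). Among 18 inhibitors 9 were higher and 1 lower (median 3.09, or 2.95 with genes at 0 counts set to their bound), and among 19 receptors 8 were higher and 2 lower (median 1.87). Wnt7a had 1780 counts in PDGFRb and 1 in CD31 non-tumor libraries (adjusted p = 5.83e-05), and Wnt7b had 1877 counts and 1 count (adjusted p = 0.000199). Their levels varied widely among the 5 PDGFRb libraries, from 0.442 to 42.4 CPM for Wnt7a and from 1.39 to 26.8 CPM for Wnt7b. The 8 astrocyte markers summed to 258.5 to 3592 CPM in the same libraries, and their part in these levels was not tested. Fzd2 stood at 19.9 to 38.6 CPM and Ptk7 at 40.4 to 53.6 CPM in PDGFRb libraries, with 1 and 9 counts in all CD31 non-tumor libraries. The inhibitors Sfrp2, at 13.9 to 21.6 CPM against 3 counts, and Sfrp1, at least 202-fold higher against 3 counts over the group, were likewise found in the mural sort. Ctnnb1 was lower in mural cells by 2.25 ± 0.13 (adjusted p = 1.58e-12). Of the barrier genes, 15 of 19 were lower in the PDGFRb sort and 1 was higher, and Cldn5 stood at 2.66 to 15.4 CPM there.

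Within the CD31 groups the 10 genes varied partly together. Over the 15 CD31 libraries, the correlation of deviations from the group mean was positive for 30 of the 45 gene pairs, with a median of 0.26. It was highest for Apcdd1 with Nkd1 at 0.87 and for Axin2 with Tcf7 at 0.86, and lowest for Reck with Adgra2 at -0.67. The points share their library, and these values are a description. Pairs of other genes were not computed, so the values do not set the 10 genes apart. The likeness of other genes was taken on levels, as log2(CPM + 1), and so includes the difference between the groups. Axin2 with Notum, for example, gave 0.80 on levels and 0.16 on deviations. Among 10190 genes with a mean of at least 5 CPM in the 15 CD31 libraries, those with levels most like Axin2 were Pir (r = 0.94), Prkd3 (0.94), Samd8 (0.94), Mxi1 (0.93) and St6galnac3 (0.93). Those most like Notum were Gpd2 (0.98), Exoc6 (0.98), Dpp4 (0.97), Dnm3os (0.97) and Pdxk (0.97). Dpp4 stood at 80.3 CPM on average in non-tumor, 5.19 CPM in breast and 6.07 CPM in lung BrM, and Gpd2 at 472, 117 and 131 CPM.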

How the data were processed

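RNA of 28 sorted-cell libraries was made with SMART-Seq HT Ultra Low Input and Nextera XT kits, per the labels' protocols, which do not mark strand. Per the submitters' processing notes the genome build was mm10, and the tools named there with no role given are limma 3.50.3, edgeR 3.36.0, the quantifier RSEM 1.3.3 and the aligner STAR 2.7.9a, and the annotation is not given in the sources used here. The authors deposited a table of expected counts for 53647 gene IDs, of which 52093 matched a symbol, 2 tables of log2 normalized values and 2 tables of FPKM values with 18665 genes each. The deposited log2 and FPKM values come as 1 table per sort and were tested only within a sort.

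The deposited expected counts were rounded to whole numbers (5.25% were not whole). Rows without a symbol, 0.182% to 1.57% of the counts, were kept under their gene ID. Each sort was fitted on its own with edgeR 4.0.16 in R 4.3.3 (quasi-likelihood test, robust, filterByExpr, TMM scaling), and comparisons between the sorts used all 28 libraries. Benjamini-Hochberg adjustment ran over all genes tested, a gene was called at an adjusted p under 0.05, and the difference called BrM averages those of breast and lung BrM. SEs were computed from the F statistic, and intervals are approximate. The script was tested on simulated data. Alternatives used DESeq2 1.42.0, limma 3.58.1 and other choices given in the closing section.

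Named genes were the 10 genes, up to 3 called genes with the largest change in each pathway list, and the receptor, transducer and barrier genes Tspan12, Ctnnb1, Lrp5, Lrp6, Cldn5, Slc2a1, Mfsd2a and Plvap. The 5 most correlated genes were named for Axin2 and Notum. The 10 genes and the lists were chosen with earlier results of these data known. Which single genes are followed under the alternatives was narrowed after values were seen: all 10 genes where at least 1 was called, and the gene with the smallest p where none was.

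The same mouse gave both sorts in 13 cases, per the labels. Over all genes, the deviations of the 2 libraries of a mouse from their group means correlated at -0.116 to 0.333 (median 0.006), above 0.1 in 3 of 13 mice. P-values measure the spread between mice or pools. Counting intervals and the limit of 3 counts cover counting error only, since the labels name no molecular identifiers.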

Additional observations from a re-analysis of the deposited data

Results flagged for a closer look

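Of the 60 sets of values formed by the 10 genes and 6 groups, 14 held a library far from the rest of its group by Dixon's test at the 95% level. That level holds for independent sets of normally distributed values. Here the test used CPM without a log, and the sets share libraries, so the count of 14 has no known rate by chance beside it. The PDGFRb lung library of mouse 51435, which held 465.7 CPM of Pdgfrb, stood far above the rest of its group by this test for 5 genes: Lef1 at 9.225 CPM (others at most 2.033), Apcdd1 at 80.3 CPM (15.66), Tnfrsf19 at 28.24 CPM (3.806), Nkd1 at 13.27 CPM (2.096) and Adgra2 at 42.02 CPM (1.874). The CD31 breast library of mouse 52599 did so for 3 genes: Axin2 at 10.04 CPM (others at most 3.491), Apcdd1 at 546.6 CPM (214.7) and Nkd1 at 49.49 CPM (16.2). Its epithelial marker sum of 185.5 CPM was the lowest of the 5 CD31 breast libraries, and the part of this in the 3 levels was not tested. The CD31 lung library of mouse 51697 held 16.01 CPM of Axin2 against at most 4.82 CPM in the others, and 89.79 CPM of Fzd4 against at least 208.2 CPM. Nkd1 stood at 113.8 CPM in the CD31 lung library of mouse 54957, against at most 40.04 CPM. Axin2 stood at 18.26 CPM in the PDGFRb non-tumor library of mouse 54132, against at most 11.75 CPM. Notum stood at 15.27 CPM in the PDGFRb breast library of mouse 51950, against at most 2.019 CPM, and at 0.5271 CPM in the PDGFRb lung library of mouse 54957, where the others were at 0.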

How the results depend on the processing

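For the genes called in the CD31 sort, all values under the alternatives stayed lower in BrM: 232 values for BrM, 168 for breast and 144 for lung BrM, of which 12, 7 and 16 no longer passed. In the PDGFRb sort all 156, 22 and 110 values stayed lower, and 35, 5 and 40 no longer passed. These values are not independent, since most alternatives share nearly all libraries. A limit on the size of the change keeps the values of the main fit, and the fit without mouse 54135 enters more than once. The number of all genes called moved with the setting. In PDGFRb breast BrM, 458 of 17028 genes were lower in the main fit, 1588 by DESeq2, 1123 by limma-voom and 26 with the date as a covariate. In PDGFRb lung BrM, 1290 were lower in the main fit and 305 with the date. In CD31 lung BrM, 2150 of 14876 were lower in the main fit and 486 with the date. The number of the 10 genes called moved as follows, and the causes were not tested. With mouse 54135 grouped by its cell type label it was 5 for CD31 BrM, 3 for CD31 lung BrM (1191 of 15017 genes lower) and 0 between the sorts. With the date as a covariate it was 3 for CD31 lung, 1 for PDGFRb BrM, 0 for PDGFRb breast and 1 for PDGFRb lung BrM. Without the 3 lung libraries low in Pdgfrb, an alternative chosen after seeing the data, it was 0 for PDGFRb BrM and 0 for PDGFRb lung BrM. Without the lung samples that carry a pair of mouse numbers it was 1 for CD31 lung against breast (218 of 15909 genes higher and 311 lower). It was 1 for PDGFRb BrM (572 of 19086 genes lower). It was 0 for PDGFRb lung BrM, where 120 of 19086 genes were lower. Without mouse 54135 it was 3 for PDGFRb lung BrM. DESeq2 called 4 in PDGFRb breast BrM and 1 in PDGFRb lung against breast, and limma-voom called 3 in PDGFRb breast BrM. For the difference between the sorts DESeq2 called 1, with 757 of 18548 genes higher and 1858 lower. Limma-voom called 2 there, with 893 higher and 1633 lower, against 665 and 1184 in the main fit. On log2(FPKM + 0.1) the number of the 10 genes called was 3 for PDGFRb breast (811 of 12597 genes lower) and 8 for PDGFRb lung BrM (1585 lower). On log2(FPKM + 1) it was 5 for PDGFRb breast BrM (1345 of 18665 genes lower). Leaving out each library in turn gave 7 to 9 for CD31 BrM, 6 to 8 for CD31 breast, 5 to 7 for CD31 lung, 0 to 1 for CD31 lung against breast, 3 to 8 for PDGFRb BrM, 0 to 2 for PDGFRb breast, 1 to 8 for PDGFRb lung, 0 to 3 for PDGFRb lung against breast, 6 to 6 between the sorts and 0 to 3 for the difference between the sorts. Over all genes, the number lower then ran from 1950 of 15291 to 3319 of 15375 in CD31 BrM. It ran from 1325 of 15204 to 1563 of 15193 in CD31 breast and from 1651 of 15272 to 2770 of 15375 in CD31 lung. For PDGFRb BrM it ran from 859 of 16608 to 3282 of 18081, and for PDGFRb breast from 202 of 16608 to 1239 of 18081. It ran from 652 of 17862 to 1662 of 17883 for PDGFRb lung and from 1519 of 18278 to 1789 of 18413 between the sorts.

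With the mouse number as a replicate block, 6 genes were called between the sorts and 0 for the difference between the sorts, as without it. Between the sorts 2416 of 18439 genes were then higher and 1473 lower. Of the named genes only Wnt10a lost its call with the block, at 5.39 (adjusted p = 0.064).

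Signs turned for differences that were not called or with mouse 54135 grouped by its label. In CD31 BrM that grouping gave Cldn5 0.04, Wls -0.05 and Wnt7b -0.49, and between the sorts Wnt10a -1.58 and Wnt7a -0.26. It gave Tcf7 -0.69 in PDGFRb lung and Notum -1.33 in PDGFRb breast BrM. Notum in PDGFRb breast BrM was 2.00, but -0.58 on the deposited log2 values, -0.61 by limma-voom, -0.45 on log2(FPKM + 0.1) and -0.48 without breast mouse 51950. Apcdd1 in PDGFRb breast BrM was 0.10 with the date as a covariate. Leaving out each library in turn gave -0.60 to 0.32 for Apcdd1 and -0.48 to 2.33 for Notum in PDGFRb breast BrM, and -0.18 to 0.01 in CD31 BrM and -0.05 to 0.16 in CD31 breast BrM for Adgra2.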
